A study of Homo sapiens with 8 samples.

Results

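Potassium channel genes were examined in DU145 cells, an established epithelial prostate carcinoma line derived from a brain metastasis. The members were all protein-coding genes of the deposited count table whose symbol starts with KCN, the naming stem of potassium channel pore subunits and their auxiliary subunits. There were 62 such genes among 32066 genes in the table. A further 10 KCN symbols were antisense, divergent or intronic transcripts or pseudogenes and were not counted as members. They include KCNJ5-AS1, which GENCODE 29 lists as protein-coding and RefSeq as a long noncoding RNA.

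RNA was sequenced in 4 libraries of control DU145 cells and 4 libraries of DU145 cells labelled as overexpressing SOX11, a transcription factor of the developing nervous system. Both groups were grown in the same serum-containing medium. The labels do not give the SOX11 construct, the vector of the control cells, or whether either population was a clone. Nothing in the labels says that the libraries came from separate cultures, so p-values measure the spread between these libraries, which may be technical.

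Potassium channels let potassium ions leave or enter a cell along their gradient and so set the resting membrane potential. In excitable cells they end action potentials and limit firing, and in epithelial cells they act in secretion, volume control and calcium entry. Pore subunits fall into voltage-gated channels, channels opened by intracellular calcium or sodium, inward rectifiers and tandem-pore leak channels. Auxiliary subunits do not form pores but change how the pores open and where they reach the membrane. RNA levels do not show how many channels were at the membrane.

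Total counts ran from 14641250 to 18706095 per library. The SOX11 gene itself was not counted in any control library and reached 303 to 317 counts per library in the SOX11 group, as the labels have it. Epithelial markers summed to 2968 to 3482 CPM (counts per 1000000, scaled by TMM factors) in control and 2606 to 2677 CPM in SOX11 libraries. Of these 6 markers, 0 were higher and 4 lower, where 10.3% of all tested genes were higher and 9.67% lower. The 4 were the keratin genes KRT8, KRT18, KRT19 and KRT7, the last with overlapping groups. EPCAM (log2 fold change 0.10) and CDH1 (-0.11) were not called. Blood and endothelial markers summed to at most 0.755 CPM in any library and fibroblast markers to at most 0.586 CPM. Neuronal markers summed to 8.10 to 9.15 CPM in control and 8.27 to 9.55 CPM in SOX11 libraries, with 0 of 3 tested members called. The glial list had 1 of 2 tested members lower, MBP. The library of SOX11 replicate 1 stood apart in 1 respect. It held 31 genes with at least 5 counts that had 0 counts in the 7 other libraries, against 0 or 1 such genes in each other library. In bulk RNA, fewer cells expressing a gene and less RNA per cell cannot be told apart.

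Many members had few counts, so the members were first sorted by depth. A gene was tested when it passed a filter on low counts, which asks for about 0.630 CPM in at least 4 libraries, and was called well measured when it was also at 1 CPM or more on average over the 8 libraries. By these rules 31 of 62 members were tested, 29 were well measured and 31 were not tested. The well measured members numbered 8 of 16 voltage-gated pore subunits, 4 of 6 electrically silent voltage-gated subunits, 4 of 6 calcium- or sodium-activated pore subunits, 2 of 9 inward rectifiers, 5 of 11 tandem-pore leak channels and 6 of 14 auxiliary subunits or regulators.

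Of the 31 tested members, 8 were higher and 7 lower in SOX11 libraries (edgeR adjusted p below 0.05 over 15665 tested genes). This is 48.4% of the tested members, where 20.0% of all tested genes were called. Among all tested genes 10.3% were higher and 9.67% lower. In 13 of the 31 members the values of the groups did not overlap, a state seen in 21.1% of all tested genes. The median log2 fold change was 0.16 over the tested members and 0.00 over all tested genes, and its median size was 0.27 and 0.11. Of the called members, 1 passed the filter on low counts through the SOX11 libraries alone, and without it 14 of 30 tested members were called. Among the 29 well measured members 14 were called, where 21.3% of all genes at that level were. KCNF1, among these 14, reached the mean of 1 CPM only through the SOX11 libraries. Its mean was 0.710 CPM in control and 1.40 CPM in SOX11 libraries. Without SOX11 replicate 1 the test called 7 members higher and 5 lower, and without SOX11 replicate 4 it called 7 higher and 4 lower.

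The background share moved with the settings, and the members' counts are best read beside it. With 8 members higher and 7 lower in each, RLE scaling called 20.0% of all tested genes, upper quartile scaling 19.8%, a stricter filter 21.5%, limma-voom 19.7% and a replicate block 18.5%. Without a filter 62 members were tested, 9 were higher and 7 lower, where 9.70% of all genes were called. The 9 include KCNN2, with counts in SOX11 replicate 1 only, and KCNH6, with counts mostly in SOX11 replicates 3 and 4. DESeq2 had 6 members higher, among them KCNH1, and 5 lower, where 15.4% of all genes were called. Without control replicates 1 to 4 in turn the share over all genes was 19.2%, 15.5%, 16.2% and 16.0%, with 6 to 8 members higher and 5 or 6 lower. Without SOX11 replicates 1 to 4 in turn it was 16.4%, 18.2%, 16.6% and 17.7%, with 7 members higher each time and 4 to 7 lower.

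**Figure D1:**
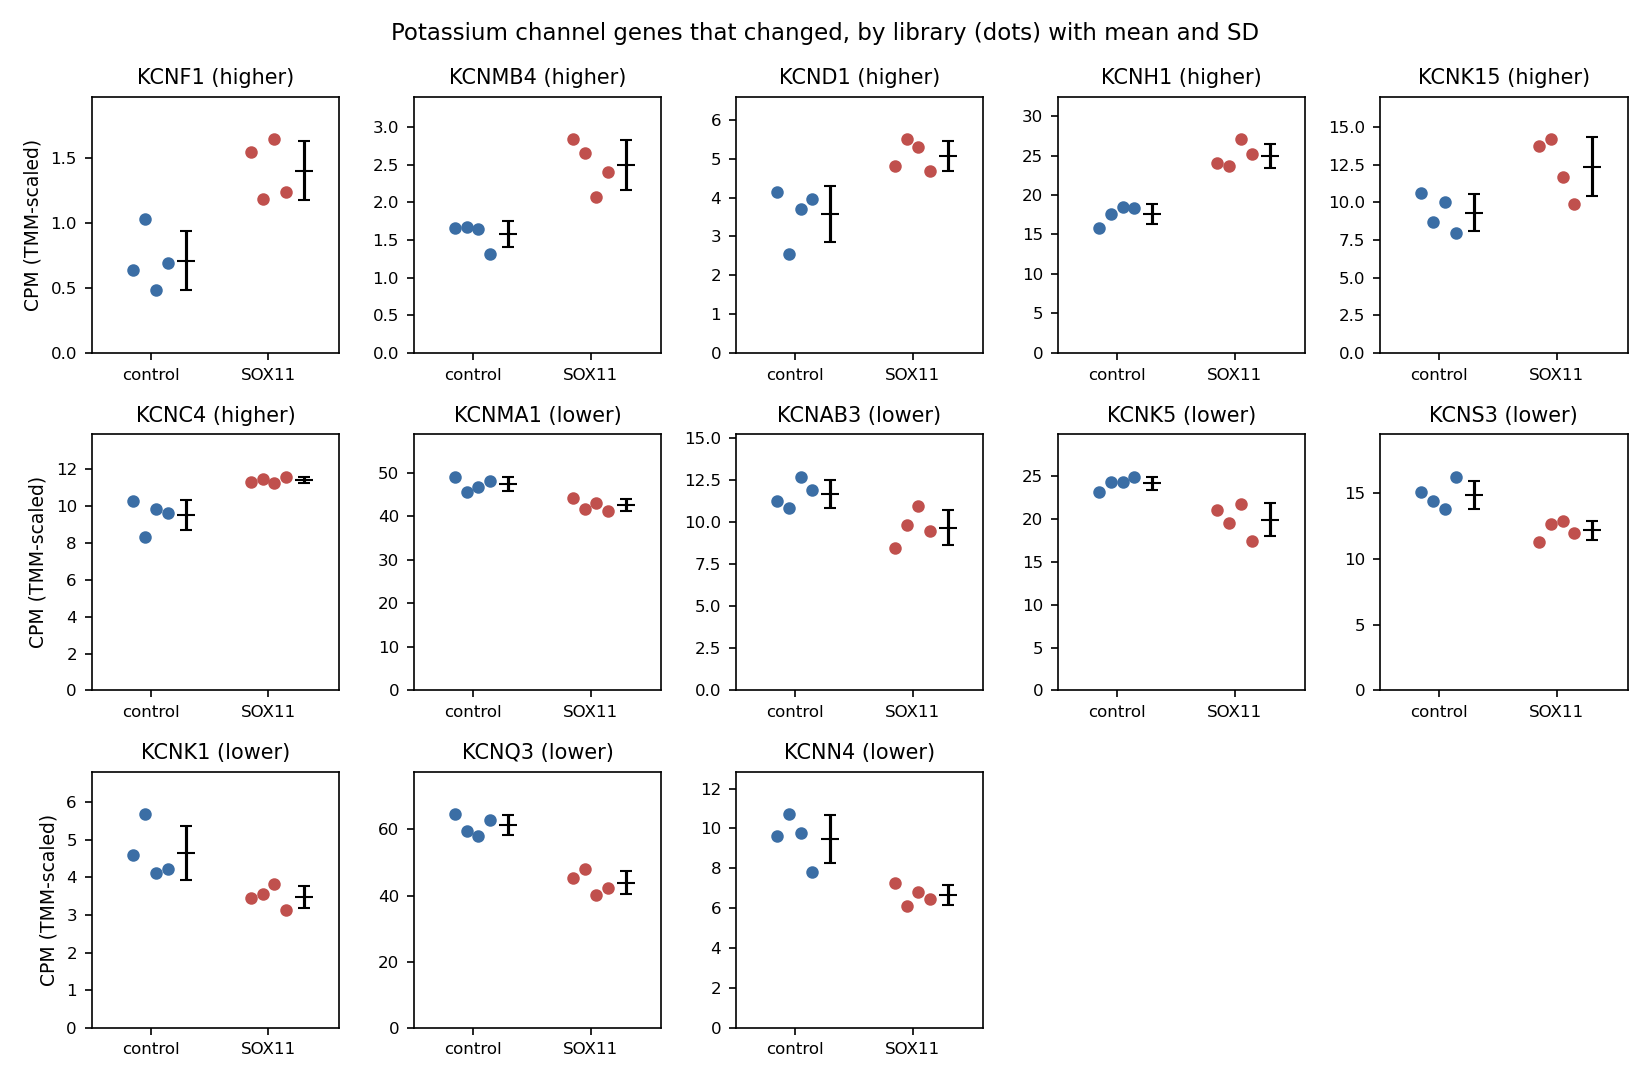
CPM in each library (dots) of 13 called potassium channel genes, with the mean and SD of 4 libraries beside them; each panel has its own linear axis from 0. The 13 genes shown fall in separate ranges in most panels, but KCNAB3 and KCNK15 overlap between the groups.

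The promoters of 4 called genes with 1 start site each in the RefSeq table are shown, to set the sequence just upstream of 3 genes that rose beside that of 1 that fell. They were picked after the values were seen. They are the bases just upstream of the start in the RefSeq table (GRCh38.p14), read in the direction of transcription, without any base that GENCODE 29 places in an exon. Capitals mark matches to ACAAAG or ACAATG on either strand, the core letters bound by SOX proteins. The windows are KCNF1 on chr2:10911684-10911933 (plus strand), KCND1 on chrX:48971845-48972094 (minus), KCNH1 on chr1:211134181-211134398 (minus) and KCNK5 on chr6:39229476-39229725 (minus).
KCNF1: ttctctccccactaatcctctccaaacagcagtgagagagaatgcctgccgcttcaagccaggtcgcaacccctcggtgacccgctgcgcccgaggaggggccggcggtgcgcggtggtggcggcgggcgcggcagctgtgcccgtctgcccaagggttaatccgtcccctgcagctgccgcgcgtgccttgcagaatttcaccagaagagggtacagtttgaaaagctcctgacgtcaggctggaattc
KCND1: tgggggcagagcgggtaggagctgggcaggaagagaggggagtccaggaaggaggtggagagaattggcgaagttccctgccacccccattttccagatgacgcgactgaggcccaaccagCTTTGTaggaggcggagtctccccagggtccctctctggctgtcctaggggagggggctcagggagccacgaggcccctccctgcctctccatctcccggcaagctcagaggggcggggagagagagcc
KCNH1: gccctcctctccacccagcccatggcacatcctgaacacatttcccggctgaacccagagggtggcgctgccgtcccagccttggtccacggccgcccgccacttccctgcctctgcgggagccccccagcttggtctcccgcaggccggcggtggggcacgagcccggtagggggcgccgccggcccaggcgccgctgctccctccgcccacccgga
KCNK5: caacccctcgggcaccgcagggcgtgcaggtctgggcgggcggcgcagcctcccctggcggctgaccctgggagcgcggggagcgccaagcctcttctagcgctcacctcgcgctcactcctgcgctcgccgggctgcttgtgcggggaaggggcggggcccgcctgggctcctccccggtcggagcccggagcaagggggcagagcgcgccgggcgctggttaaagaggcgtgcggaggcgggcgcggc
All 4 windows were rich in G and C, at 63.6% for KCNF1, 65.6% for KCND1, 74.8% for KCNH1 and 77.2% for KCNK5. KCND1 held 1 match, on the opposite strand, and the other 3 windows held 0. Over the full 250 bases upstream, 9 of the 15 called members had an entry and 2 of these held a match, KCND1 with 1 and KCNN4, which fell, with 3. The KCNN4 window is not shown, and it lies within the span that GENCODE 29 gives for the gene. Of 12 tested members with an entry that were not called, 1 held a match, KCNMB3. Some genes have more than 1 window. Counted by window, 2 of 11 windows of called members (18.2%) and 3 of 34 of all tested members (8.82%) held a match. Of 35116 windows of the same length in the table, 21.2% held a match. A match is a description of the letters and not a binding site. KCNQ3 had no entry.

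Of 10 tested voltage-gated pore subunits, 5 were higher and 1 lower, where 10.3% of all tested genes were higher and 9.67% lower. KCNQ3 (ENSG00000184156, GRCh38 chr8:132120858-132481019, minus strand) encodes Kv7.3, a subunit of the neuronal M-current, a slow potassium current that restrains repeated firing, and was the most counted member of the family in control cells. It was at 64.6, 59.5, 58.1 and 62.9 CPM in control replicates 1 to 4 and at 45.3, 48.0, 40.0 and 42.3 CPM in SOX11 replicates 1 to 4. The groups did not overlap. The means were 61.2 ± 2.99 and 43.9 ± 3.50 CPM (SD, n = 4 per group), and edgeR gave a log2 fold change of -0.48 ± 0.0523 SE with an adjusted p of 5.07e-08.

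Per kilobase of annotated exon, the KCNQ3 level was 4.84 CPM in control and 3.47 CPM in SOX11 cells. The related gene KCNQ5 was at 9.99 ± 1.12 CPM in control and 11.1 ± 1.13 CPM in SOX11 libraries (edgeR adjusted p = 0.273), and its 95% interval ran from -0.04 to 0.35 on the log2 scale.

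KCNH1 (ENSG00000143473, GRCh38 chr1:210676823-211134180, minus strand) encodes Kv10.1 or EAG1, a channel mostly found in brain that is often present in tumour cells. It was at 15.8, 17.6, 18.5 and 18.3 CPM in control replicates 1 to 4 and at 24.0, 23.7, 27.1 and 25.2 CPM in SOX11 replicates 1 to 4. All SOX11 libraries were above all control libraries. The log2 fold change was 0.51 ± 0.0672 SE (edgeR adjusted p = 1.09e-06), with a 95% interval from 0.37 to 0.65. KCNH1 shares 3618 exon bases with AC096636.1 on the opposite strand, which was at 0.474 and 0.753 CPM and was not tested. KCNH1-IT1, a noncoding transcript named for its place within a KCNH1 intron, was at 2.26 ± 0.561 and 2.65 ± 0.506 CPM (edgeR adjusted p = 0.414). The related gene KCNH2, which encodes the cardiac hERG channel, was at 1.32 ± 0.356 CPM in control and 1.69 ± 0.109 CPM in SOX11 libraries. It was not called (edgeR adjusted p = 0.268), and its interval, from -0.08 to 0.81 on the log2 scale, includes the size of the KCNH1 change. KCNH3 was at 0.487 and 0.609 CPM (0.669).

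Rises were also seen in KCND1 and KCNC4. KCND1, which encodes the transient A-type channel Kv4.1, was at 4.15, 2.54, 3.71 and 3.95 CPM in control and at 4.81, 5.50, 5.29 and 4.69 CPM in SOX11 libraries. Control replicate 2 was the low library, and without it the log2 fold change went from 0.52 ± 0.143 SE (edgeR adjusted p = 0.00901) to 0.37 (edgeR adjusted p = 0.0737). KCNC4, which encodes the Kv3.4 channel, was at 10.3, 8.33, 9.82 and 9.63 CPM in control and at 11.3, 11.5, 11.3 and 11.6 CPM in SOX11 libraries. Its groups did not overlap, but its log2 fold change of 0.27 ± 0.0876 SE (edgeR adjusted p = 0.0288) is near the threshold. The KCNC4 call ended without control replicate 2 (edgeR adjusted p = 0.154), control replicate 4 (0.0502) or any 1 of the SOX11 replicates (0.0514, 0.0510, 0.0503 and 0.0623 for replicates 1 to 4), without a filter on low counts (0.0539), and with DESeq2 (0.0866).

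**Figure D2:**
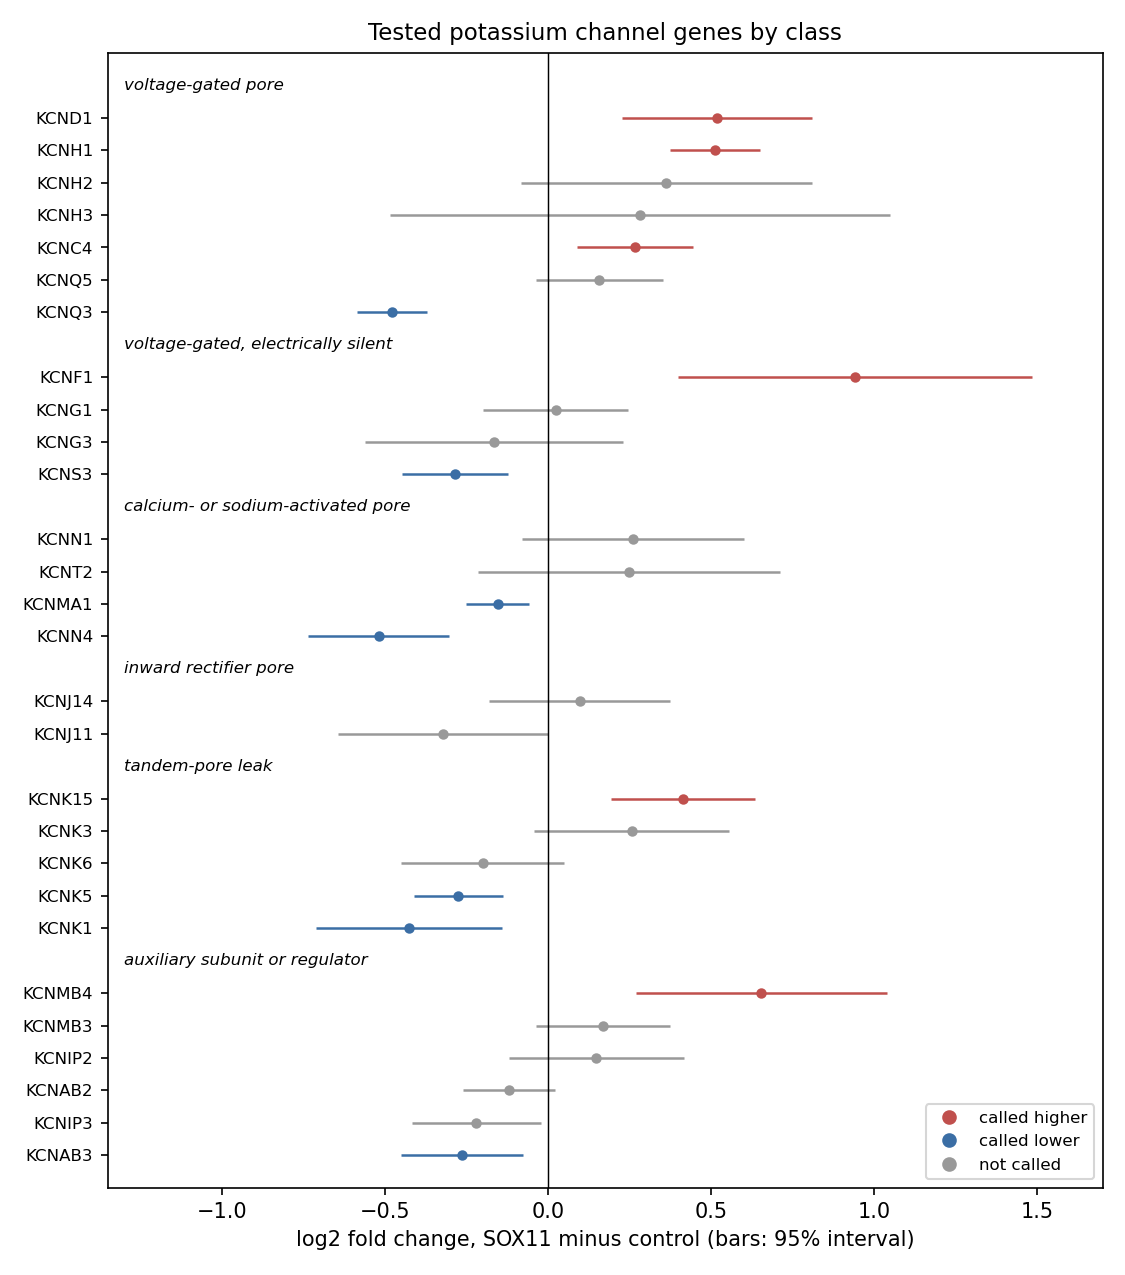
Log2 fold change, SOX11 minus control, of 28 tested potassium channel genes with its 95% interval, grouped by class; red marks genes called higher, blue lower and grey not called. The called genes drawn lie between -0.52 and 0.94, and both directions occur in each class that has called genes except the calcium- or sodium-activated one.

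Electrically silent subunits do not conduct on their own and modify Kv2 channels. Of 4 tested members, 1 was higher and 1 lower, where 20.0% of all tested genes were called in either direction. So few members cannot be read as a class result. KCNF1 (Kv5.1) was at 0.639, 1.03, 0.481 and 0.693 CPM in control and at 1.54, 1.18, 1.64 and 1.24 CPM in SOX11 replicates 1 to 4. The groups did not overlap, although the highest control library lay close to the lowest SOX11 library (log2 fold change 0.94 ± 0.266 SE, edgeR adjusted p = 0.0110). KCNS3 (Kv9.3) was at 15.1, 14.4, 13.7 and 16.2 CPM in control and at 11.2, 12.7, 12.8 and 11.9 CPM in SOX11 libraries. All SOX11 libraries were lower (log2 fold change -0.29 ± 0.0795 SE, edgeR adjusted p = 0.00965). KCNG1 was at 7.05 ± 0.669 and 7.12 ± 0.761 CPM, and its interval from -0.20 to 0.25 on the log2 scale contains changes of either sign. KCNG3 was at 2.13 and 1.88 CPM (edgeR adjusted p = 0.615).

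Among channels opened by intracellular calcium or sodium, 2 of 4 tested members were lower and 0 higher. Over all tested genes 10.3% were higher and 9.67% lower, and 4 members are too few to set against these shares. KCNN4 (ENSG00000104783, GRCh38 chr19:43766533-43781261, minus strand) encodes KCa3.1, the intermediate-conductance calcium-activated channel of epithelial and blood cells. It was at 9.64, 10.7, 9.75 and 7.83 CPM in control replicates 1 to 4 and at 7.28, 6.09, 6.81 and 6.45 CPM in SOX11 replicates 1 to 4. The groups did not overlap (log2 fold change -0.52 ± 0.106 SE, edgeR adjusted p = 0.000564). KCNMA1, which encodes the pore of the large-conductance BK channel, was second to KCNQ3 in control counts. It was at 49.1, 45.4, 46.8 and 48.0 CPM in control and at 44.2, 41.7, 42.9 and 41.2 CPM in SOX11 libraries. The fall was small but the groups did not overlap (log2 fold change -0.15 ± 0.0474 SE, edgeR adjusted p = 0.0200). The KCNMA1 call ended without control replicate 1 (edgeR adjusted p = 0.0600), control replicate 4 (0.0510) or SOX11 replicate 4 (0.0558). The small-conductance channel gene KCNN1 was at 2.46 and 2.93 CPM (0.302), and KCNT2, which encodes a sodium-activated channel, at 1.69 and 2.00 CPM (0.50).

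BK channels carry beta subunits that change their calcium response. KCNMB4, the beta subunit known mainly from neurons, was at 1.66, 1.68, 1.65 and 1.32 CPM in control and at 2.84, 2.66, 2.07 and 2.41 CPM in SOX11 replicates 1 to 4. All SOX11 libraries were above all control libraries (log2 fold change 0.65 ± 0.188 SE, edgeR adjusted p = 0.0122). KCNMB3 was at 7.38 ± 0.737 and 8.31 ± 0.363 CPM (edgeR adjusted p = 0.265). It shares 3403 exon bases with PIK3CA on the opposite strand, so without a stated strand setting its counts are uncertain. KCNMB1 had 1 count in all libraries together. Per kilobase of exon, the KCNMB4 level was 0.323 CPM in control and 0.512 CPM in SOX11 cells, beside 1.33 and 1.19 CPM for KCNMA1, whose many annotated exons lower its value per kilobase.

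The remaining auxiliary subunits were mostly not called. Of 6 tested, 1 was higher, KCNMB4, and 1 lower, where 20.0% of all tested genes were called in either direction. KCNAB3, a beta subunit of Kv1 channels, was at 11.2, 10.8, 12.7 and 11.9 CPM in control and at 8.45, 9.82, 10.9 and 9.51 CPM in SOX11 replicates 1 to 4. SOX11 replicate 3 overlapped the control range (log2 fold change -0.26 ± 0.0914 SE, edgeR adjusted p = 0.0394). The KCNAB3 call ended with DESeq2 (adjusted p = 0.0868) and when edgeR was run without control replicate 3 (0.129) or 4 (0.0856), or without SOX11 replicate 1 (0.148), 2 (0.0555) or 4 (0.0742). KCNAB2, the more abundant Kv1 beta subunit, was at 21.9 ± 2.03 and 20.2 ± 1.13 CPM (edgeR adjusted p = 0.243). The calcium-binding KCNIP proteins join Kv4 channels such as the product of KCND1. KCNIP3 was at 10.3 ± 1.17 and 8.84 ± 0.673 CPM (edgeR adjusted p = 0.112). KCNIP2 was at 3.77 ± 0.275 and 4.18 ± 0.188 CPM (0.488) and shares 413 exon bases with KCNIP2-AS1 on the opposite strand.

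Tandem-pore leak channels carry the background potassium current. Of 5 tested members, 1 was higher and 2 lower, where 20.0% of all tested genes were called in either direction. The class is too small to set against that share. KCNK5 encodes the acid-sensitive leak channel TASK-2 of epithelia. It was at 23.1, 24.3, 24.3 and 25.0 CPM in control and at 21.0, 19.5, 21.8 and 17.5 CPM in SOX11 replicates 1 to 4. The groups did not overlap (log2 fold change -0.27 ± 0.0669 SE, edgeR adjusted p = 0.00334). KCNK1, which encodes TWIK-1, was at 4.60, 5.68, 4.12 and 4.23 CPM in control and at 3.46, 3.55, 3.83 and 3.13 CPM in SOX11 libraries. Control replicate 2 was the high library (log2 fold change -0.43 ± 0.139 SE, edgeR adjusted p = 0.0282). The KCNK1 call ended without it (log2 fold change -0.31, edgeR adjusted p = 0.172), without SOX11 replicate 1 (0.0580) or 4 (0.0761), and under DESeq2 (0.0830).

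KCNK15, which encodes the TASK-5 protein, was at 10.6, 8.71, 10.0 and 7.97 CPM in control and at 13.8, 14.2, 11.7 and 9.90 CPM in SOX11 replicates 1 to 4. SOX11 replicate 4 lay within the control range (log2 fold change 0.41 ± 0.107 SE, edgeR adjusted p = 0.00645). KCNK15 shares 506 exon bases with RIMS4 on the opposite strand. RIMS4 itself was higher in SOX11 libraries, at 39.6 ± 1.88 against 30.9 ± 2.04 CPM, with a log2 fold change of 0.36 and an edgeR adjusted p of 1.36e-05, and its part in the KCNK15 counts was not tested. KCNK3, which encodes TASK-1, was at 4.22 ± 0.504 and 5.01 ± 1.13 CPM (edgeR adjusted p = 0.238), and KCNK6 at 5.65 ± 0.705 and 4.92 ± 0.417 CPM (0.272).

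Inward rectifiers pass potassium more easily into the cell than out of it. Neither tested member passed the test. KCNJ11, the pore of the ATP-sensitive channel, was at 3.36 ± 0.300 CPM in control and 2.69 ± 0.478 CPM in SOX11 libraries (edgeR adjusted p = 0.157). Its regulatory partners ABCC8 and ABCC9 were at 0.103 and 0.249 CPM over all libraries and were not tested. KCNJ14 was at 6.21 ± 0.804 and 6.63 ± 1.42 CPM (0.687) and shares 350 exon bases with GRWD1 on the same strand.

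**Figure D3:**
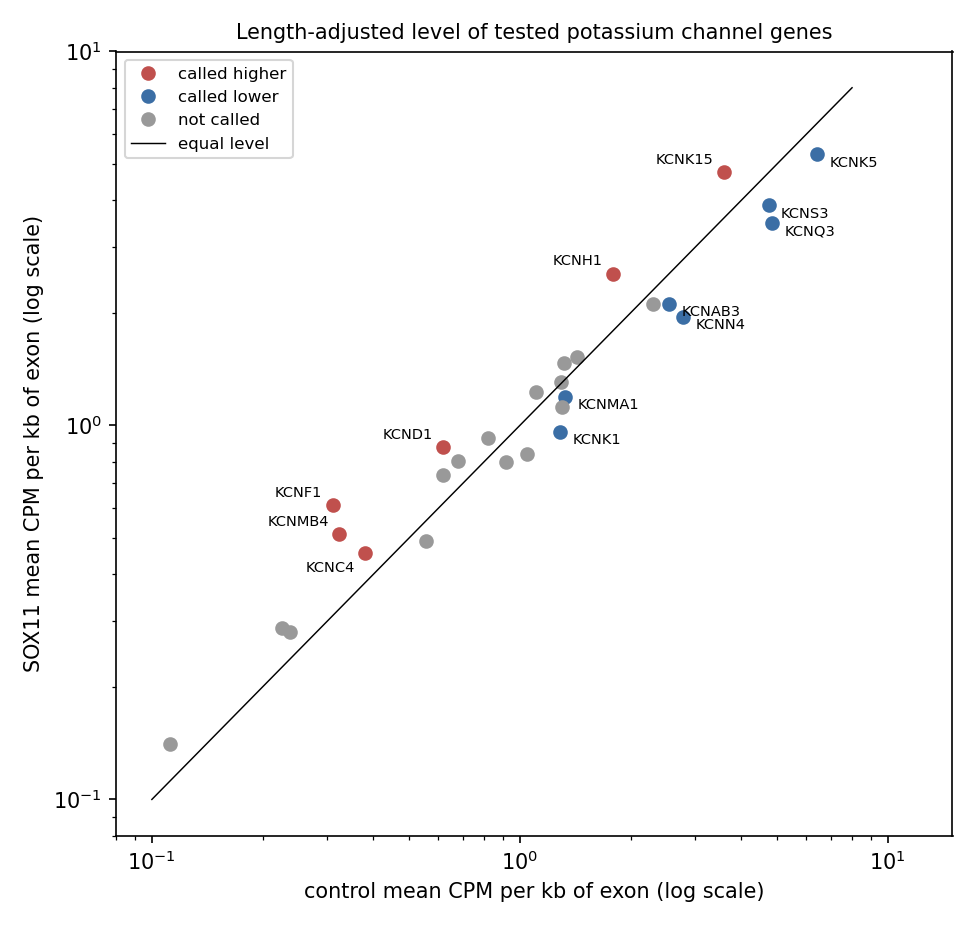
Mean level per kilobase of annotated exon of 28 tested potassium channel genes in control (x) and SOX11 libraries (y), both on log scales, with the line of equal level and the called genes named. KCNK5, KCNS3 and KCNQ3 lie at the upper right and below the line. KCNK15 lies at the upper right and above the line, and KCNF1, KCNMB4, KCND1 and KCNH1 also lie above it.

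Levels of different genes are comparable only per length of transcript, and were divided here by the length of all annotated exons of a gene. That length was 35644 bases for KCNMA1 and 3756 for KCNK5, so the ranking depends on it. KCNMA1 was at 47.3 CPM in control but at 1.33 CPM per kilobase. Of the 2599 bases of KCNK15, 506 are shared with RIMS4. In control cells the highest levels were 6.43 CPM per kilobase for KCNK5, 4.84 for KCNQ3, 4.74 for KCNS3, 3.59 for KCNK15 and 2.78 for KCNN4. Of these genes, all but KCNK15 were lower in SOX11 cells. In SOX11 cells the same scale gave 5.31 for KCNK5, 4.76 for KCNK15, 3.88 for KCNS3, 3.47 for KCNQ3 and 2.55 for KCNH1. Summed over the 62 members, the family was at 313 ± 5.84 CPM in control and 298 ± 7.41 CPM in SOX11 libraries, with ranges of 308 to 321 and 288 to 306 CPM. Leaving out KCNQ3, the sums were 252 ± 4.16 and 254 ± 7.17 CPM. KCNQ3 and KCNMA1 together made up 34.6% of the family's CPM in control and 29% in SOX11 cells.

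The 31 members that were not tested had at most 17 counts in any library. Of these, 17 had a count in each library of at least 1 group: KCNC1, KCND3, KCNH4 and KCNQ1 among voltage-gated subunits, KCNG4 among silent subunits, KCNN3 among calcium-activated channels, KCNJ1, KCNJ4, KCNJ5, KCNJ8 and KCNJ10 among inward rectifiers, KCNK7 and KCNK13 among leak channels, and KCNE1, KCNE3, KCNE5 and KCNRG among auxiliary genes. KCNQ1, which encodes the cardiac and epithelial channel Kv7.1, had 5 to 17 counts per library in both groups. The other 14 had no count in at least 1 library of each group. Of the 31, 13 had fewer than 10 counts in all libraries together. KCNE1 has a near-identical copy, KCNE1B, and KCNRG shares 1086 exon bases with TRIM13 on the same strand, so their counts are uncertain. A gene with 0 counts in all 4 control libraries may still have been present at up to 0.0475 CPM, the level of 3 counts over the group (counting error only).

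Partner genes were read from lists of known roles. Their products bind potassium channels, move potassium by other means, or form other cation and volume channels, among them anion channel subunits. Of 44 tested genes, 5 were higher and 11 lower, where 10.3% of all tested genes were higher and 9.67% lower. In the list of channel partner proteins 1 of 16 tested genes was higher and 7 were lower. NEDD4L, a ubiquitin ligase that removes Kv7 and other channels from the membrane, was at 130 CPM in control and 106 CPM in SOX11 libraries (log2 fold change -0.29, edgeR adjusted p = 1.98e-05). The related ligase gene NEDD4 (-0.13) fell as well.

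For the sodium-potassium pump, which builds the potassium gradient, 1 of 6 tested genes was higher and 1 lower, beside 20.0% of all tested genes called in either direction. The regulatory subunit genes FXYD6 (log2 fold change 0.93) and FXYD5 (-0.46) were called. Of 11 potassium-chloride cotransport genes, 1 was higher, SLC12A7 (0.25), and 1 lower, SLC12A4 (-0.20), a share near that 20.0%. Among other cation and volume channels, 2 of 11 were higher and 2 lower, and all 4 encode subunits of the volume-regulated anion channel: LRRC8B (0.30) and LRRC8A (0.18) rose and LRRC8C (-0.26) and LRRC8E (-0.23) fell.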

How the data were processed

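RNA sequencing of 8 DU145 libraries, 4 control and 4 with exogenous SOX11, was analysed. The authors deposited raw counts per Ensembl gene, 1 column per library, without normalization. Poly(A) libraries were made with a stranded TruSeq kit, per the labels' protocols. STAR 2.7.0e, cutadapt, FastQC and GRCh38 are named in the submitters' processing notes. The read counter, its strand setting and its annotation were not given in the sources used here. Symbols came from a table of gene names for 32053 of 32066 identifiers and from GENCODE 29 for the rest. Coordinates and exon lengths come from GENCODE 29. Promoter sequences come from RefSeq.

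Genes were filtered with filterByExpr (minimum count 10), scaled by TMM and tested with edgeR 4.0.16 (robust quasi-likelihood, R 4.3.3); the model held the group alone. Benjamini-Hochberg adjustment ran over 15665 genes, and a gene was called below 0.05. Errors beside CPM are SD. Single values of some genes are not reported here, and the counts of members include them. The SE and interval of a log2 fold change derive from its F statistic. Apart from those genes, called members were named with every library, other tested members with group means, untested members by counts, and partner lists by up to 4 called genes with the smallest adjusted p. KCNMB1, KCNN2, KCNH6, ABCC8, ABCC9, MBP and genes that share exon bases with members were added after their values were seen. The single epithelial markers were also named after their values were seen. The code was tested on simulated data. Alternatives were RLE and upper quartile scaling, 2 other filters, DESeq2 1.42.0, limma-voom (limma 3.58.1), a replicate block and each library left out. Members, lists and tests were chosen with earlier results of these data known. Replicate pairs differed by more than sampling noise (chi-square per degree of freedom from 1.43 to 3.25).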

Additional observations from a re-analysis of the deposited data

Results flagged for a closer look

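In 2 of 62 groups of 4 libraries, 1 library lay far from the other libraries of its group, where chance gives about 1 in 20. KCNJ14 was at 7.42 CPM in control replicate 4, above the rest of its group, and KCNMB4 was at 1.32 CPM in control replicate 4, below the rest of its group.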

How the results depend on the processing

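Of the 15 called members, 10 were called in every alternative that gave an adjusted p, among them KCNF1, KCNMB4, KCNH1, KCNK15, KCNQ3, KCNN4, KCNK5 and KCNS3. DESeq2 gave no adjusted p for 1 called member. Of the 16 tested members that were not called, 0 were called in any alternative. Members called higher numbered 6 with DESeq2 and 8 or 9 in the other fits to all libraries, and members called lower 5 with DESeq2 and 7 in the others. With 1 library left out, 6 to 8 were higher and 4 to 7 lower, the 4 without SOX11 replicate 4. KCNG1, not called, changed sign without control replicate 2 (-0.0228) or SOX11 replicate 1, and ranged from -0.0393 to 0.0842 with 1 library left out. Without a filter KCNN2 (edgeR adjusted p = 0.0223) and KCNH6 (0.0397) were called higher and KCNC4 (0.0539) was not. The replicate numbers are not stated to pair the libraries, and same-numbered libraries correlated from -0.07 to 0.11 in their deviations. With the replicate number as a block, 8 members were higher, 7 lower and 16 partner genes called, as without it. Partner genes called ranged from 14 to 18 over all alternatives, against 16. A minimum of 0.5 CPM gave 31 well measured members in place of 29. Members under about 10 counts per library are limited by depth.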

Other observations

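KCNN2, which encodes a small-conductance calcium-activated channel, had 10 counts in SOX11 replicate 1 and 0 in the 7 other libraries. The noncoding KCNQ1OT1 had 5 counts in the same library and 0 in the others. Both belong to the 31 genes with at least 5 counts seen in that library alone, of which 14 had at least 10 counts. In the other libraries no gene had at least 10 counts in 1 library alone. KCNH6, which encodes a relative of hERG, had 0, 0, 1 and 0 counts in control replicates 1 to 4 and 0, 1, 6 and 6 counts in SOX11 replicates 1 to 4, so its SOX11 counts came mostly from replicates 3 and 4.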
